A study of Macaca mulatta with 6 samples.

Results

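Chromosomes 5, 17 and 18 of the rhesus macaque (Macaca mulatta) correspond to human chromosomes 4, 13 and 18, which are known for holding few genes for their length. All CCGG sites listed on these 3 autosomes in 2 deposited tables of modified sites, one of haploid embryonic stem cells (ESC) and one of sperm, were pooled. They made up 137739 of 1406954 sites listed in either table, or 9.79%, with 64644 sites on chromosome 5, 39018 on chromosome 17 and 34077 on chromosome 18. The list of haploid ESC held 133257 of them and that of sperm 127762, and 123280 were listed in both.

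CpG sites in vertebrate DNA are mostly methylated, except in CpG islands, which lie at many gene starts and are rich in CCGG. Chromosomes with few genes therefore hold few CpG islands, and more of their CCGG sites lie alone in long stretches of CpG-poor DNA. In sperm such DNA is known to be heavily methylated, while the methylation of embryonic stem cells varies with their culture.

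The study's title names the haploid ESC as parthenogenetic, which means that their genome comes from an egg without a paternal contribution. Sperm carry the paternal genome, so the pair sets maternally against paternally derived DNA. It also sets cultured cells against a germ cell, and parental origin and cell type cannot be told apart here. Each cell type was digested in 3 ways, labelled HpaII, BGT_MspI and MspI, with 1 library per digest and 6 libraries in all. HpaII is blocked by methylation within CCGG and MspI is not, and the glucosyltransferase named by BGT adds a glucose to 5-hydroxymethylcytosine, which then blocks MspI. The sources used here name no cell line, animal or age for either group. With no replicate, no value below has a replicate error and no test between the cell types was possible.

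Each table was read as holding 2 comparisons of digests per site. They are named the first and second pair here, and a site was called where the authors' deposited adjusted p of that pair was below 0.05. Which digests form a pair is not named, so a call tells that a pair of digests differed at a site and gives neither direction nor level of modification. Setting the cell types side by side assumes that a pair holds the same digests in both tables. Percentages are shares of listed sites with 95% Wilson intervals, and their differences have 95% Newcombe intervals. Both cover counting error only and are too narrow, because neighbouring sites are not independent. Read depth is unknown, and whether a site is listed may itself depend on its modification or coverage, which was not tested.

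The gene-poor label held in the reference gene table, which belongs to the assembly T2T-MMU8v2.0 and not to the tables' own build. Chromosome 17 had 3.40 protein-coding genes per Mb between its first and last gene (368 genes), chromosome 18 had 3.78 (319 genes) and chromosome 5 had 4.13 (819 genes). These were the 3 lowest values of the 20 autosomes, and the 17 others ran from 4.57 on chromosome 12 to 21.4 on chromosome 19. By listed CCGG sites the order was another. Chromosome 5 had 349 sites per Mb, the lowest of the 20 autosomes, whereas chromosome 17 had 411 and was 4th from the bottom. Chromosome 18, at 454 sites per Mb, was 8th, above chromosomes 2, 6, 8, 12 and 4, which hold more genes per Mb. The others ran from 400 on chromosome 2 to 809 on chromosome 19, with a median of 506. Pooled, the 3 chromosomes held 388 sites per Mb against 511 on the other autosomes, a ratio of 0.759 (95% Poisson interval 0.755 to 0.763). Without chromosome 5 the ratio was 0.841. Across the 20 autosomes genes per Mb and sites per Mb rose together (Pearson's r 0.85, Spearman's rho 0.84, across chromosomes of the same 2 tables).

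Sites lay farther apart on chromosome 5 than on any other autosome, while chromosomes 17 and 18 lay within the range of the others. The median distance to the next site was 1479 bp on chromosome 5, 1194 bp on chromosome 17 and 1078 bp on chromosome 18, against 562 to 1296 bp on the others. On chromosome 5, 57.8% of sites had no other listed site within 500 bp, more than on any other autosome. The share was 52.4% on chromosome 17 and 49.8% on chromosome 18, both inside the range of the others (31.4% to 55.5%). Distances over 5000 bp made up 17.1% of those on chromosome 5, 13.5% on chromosome 17 and 10.9% on chromosome 18, while the others reached at most 13.8%. The longest stretch without a site was 712 kb on chromosome 5 (chr5:46037660-46749659), 628 kb on chromosome 18 (chr18:59557919-60186408) and 333 kb on chromosome 17 (chr17:28952796-29285322). All positions are as the deposited tables give them, the ends of these stretches are the sites on either side, and whether a gap reflects the assembly was not tested.

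In 1 Mb bins counted from position 1, chromosome 5 filled 185 bins, chromosome 17 filled 95 and chromosome 18 filled 75. None of these 355 bins was empty and each held at least 50 sites, whereas 45 of 2386 bins of the other autosomes were empty. The median bin held 294 sites on chromosome 5 (quartiles 248 and 391), 333 on chromosome 17 (254.5 and 486.5) and 386 on chromosome 18 (276.5 and 555.5). Bins with fewer than 300 sites formed 52.4% of chromosome 5, 43.2% of chromosome 17 and 30.7% of chromosome 18, against 26.2% of the other autosomes' bins with at least 50 sites. Bins with 900 sites or more were rare, with 3 on each of the 3 chromosomes (2.54% of their bins pooled), against 11% elsewhere.

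Density was highest towards the chromosome ends. The first 5 Mb of chromosome 5 held 1097 sites per Mb and its last 5 Mb 625, with 322 between them. Chromosome 17 had 678 and 1066 at its ends and 358 between, and chromosome 18 had 730, 972 and 401. The densest bin of each lay at or next to an end: chr5:1-1000000 with 1598 sites, chr17:93000001-94000000 with 1395 and chr18:73000001-74000000 with 1401. On the other autosomes the ends held 1014 and 1055 sites per Mb and the stretches between 473. The sparsest bin of chromosome 17 was chr17:45000001-46000000 with 154 sites, and that of chromosome 18 was its first, with 111. The last bin of chromosome 5 had the fewest sites, 54, but these lay within 61.0 kb at the end of the listed sequence. Among the other bins of chromosome 5 the sparsest was chr5:66000001-67000000 with 125 sites. That bin held a stretch of 480 kb without a listed site (chr5:66324069-66804273), and chr17:45000001-46000000 held one of 150 kb. Their low counts therefore do not give the density of the sequence around such gaps.

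**Figure D1:**
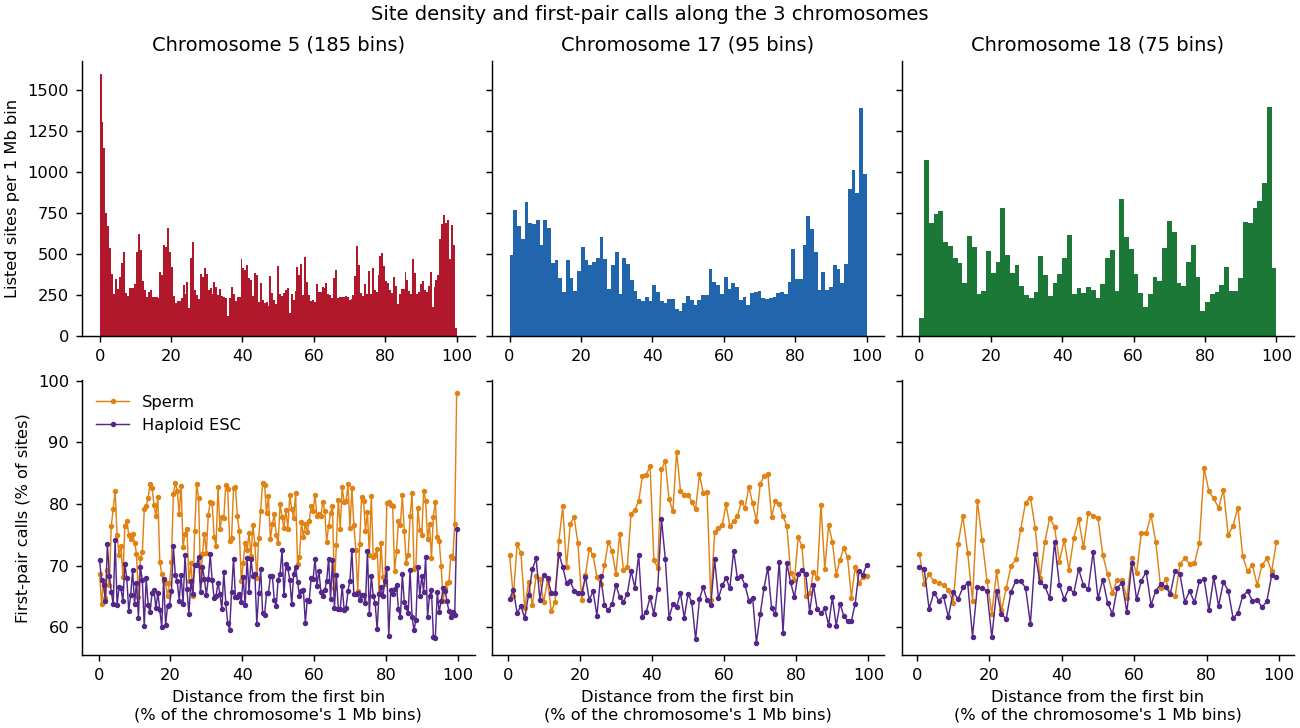
Listed CCGG sites per 1 Mb bin (top) and percent of sites called for the first pair in each bin (bottom) along chromosomes 5, 17 and 18. The horizontal axis is the place of the bin as a percent of the chromosome's bins, and orange and purple points are sperm and haploid ESC, 1 library per digest. Density rises at the ends, the sperm share rises where density falls, and the haploid ESC share stays between 57.5% and 77.6% in all 355 bins.

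For the first pair, these chromosomes stood at the low end in haploid ESC and, for chromosomes 5 and 17, at the high end in sperm. In haploid ESC 66.8% of all listed sites were called. The share was 65.9% on chromosome 5 (65.6% to 66.3%), 65.7% on chromosome 17 (65.2% to 66.2%) and 65.6% on chromosome 18 (65.1% to 66.2%). Chromosomes 18 and 17 had the lowest shares of the 20 autosomes and chromosome 5 the 4th lowest, but their intervals overlapped those of chromosome 13, the lowest of the others at 65.9%. The highest was 69.6% on chromosome 19. Pooled, the 3 chromosomes had 65.8% of sites called against 66.9% on the other autosomes, a difference of -1.15 percentage points (-1.42 to -0.880).

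In sperm 69.5% of all listed sites were called for the first pair. Chromosome 5 had 73.8% (73.4% to 74.1%), the highest of the 20 autosomes, and chromosome 17 had 71.8% (71.4% to 72.3%), the second highest. The interval of chromosome 17 overlapped that of chromosome 6, which followed at 71.7%, and the interval of chromosome 5 did not. Chromosome 18, at 70.5% (70.0% to 71.0%), was 13th from the bottom, inside the range of the others (66.5% on chromosome 16 to 71.7%). The pooled share was 72.4% against 69.4%, a difference of 3.02 percentage points (2.76 to 3.28). The difference was 4.37 points for chromosome 5, 2.44 for chromosome 17 and 1.10 for chromosome 18, and 1.81 without chromosome 5.

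Stricter thresholds gave the same order in sperm. At an adjusted p below 0.001, 48.1% of all sperm sites were called, with 53.8% on chromosome 5, 51.3% on chromosome 17 and 49.0% on chromosome 18, against 43.9% to 51.0% on the others. At 0.01 the background was 57.6% and the 3 chromosomes had 62.9%, 60.4% and 58.5%. In haploid ESC 53% of all sites were called at 0.01, with 51.9%, 51.8% and 51.5% on chromosomes 5, 17 and 18. At 0.001 the background was 41.5% and the shares were 40.1%, 40.2% and 39.5%, with that of chromosome 18 the lowest of the 20 autosomes. Chromosome 5 came next at 40.13%, almost level with chromosome 9 at 40.14%.

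**Figure D2:**
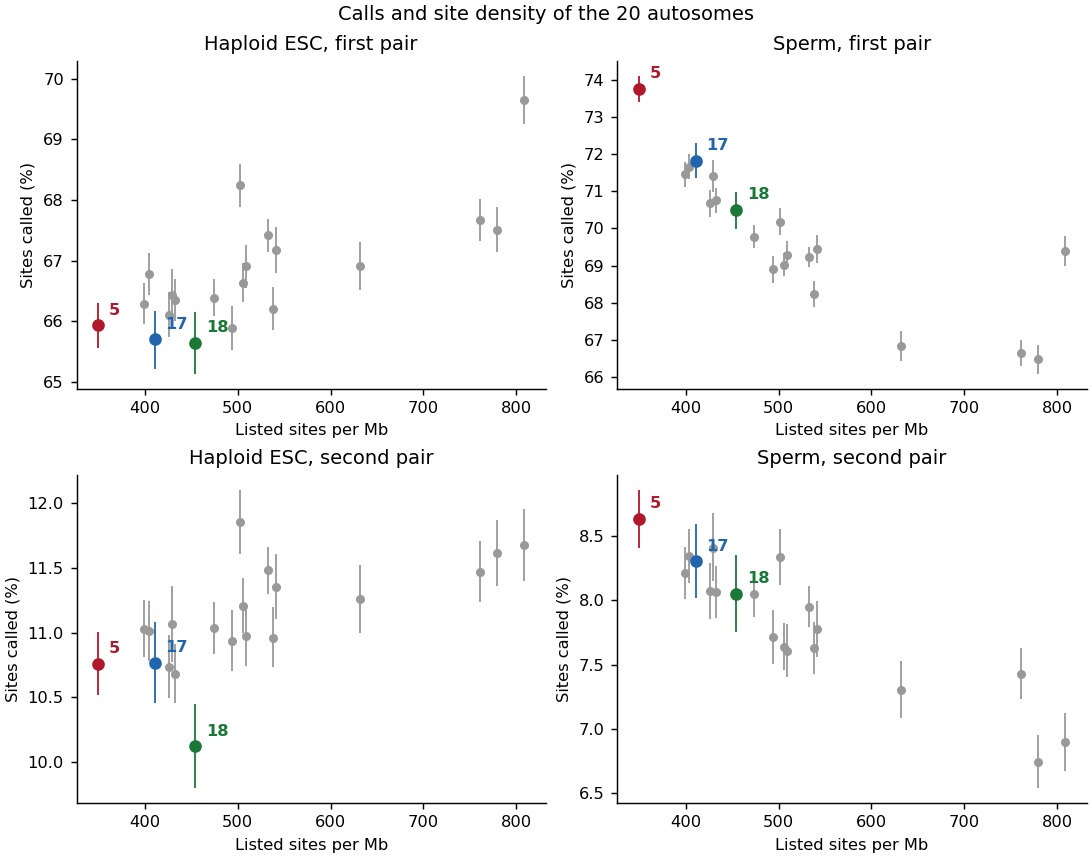
Percent of listed sites called at an adjusted p below 0.05 (vertical) against listed sites per Mb (horizontal) for the 20 autosomes, by cell type and pair of digests. Vertical lines are 95% Wilson intervals, red, blue and green mark chromosomes 5, 17 and 18, and the vertical axes do not start at 0. In sperm the shares fall with density, from 73.8% on chromosome 5, and chromosome 18 lies among autosomes of similar density.

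Calls for the second pair were much rarer, and each of the 3 chromosomes differed little from the rest. In haploid ESC 11.1% of all sites were called, with 10.8% on chromosome 5 (10.5% to 11%), 10.8% on chromosome 17 (10.5% to 11.1%) and 10.1% on chromosome 18 (9.80% to 10.4%). Chromosome 18 had the lowest share of the 20 autosomes, and its interval ended just below that of chromosome 4, which was the lowest of the others at 10.7% (10.5% to 10.9%). In sperm 7.72% of all sites were called. Chromosome 5 had 8.63% (8.41% to 8.85%), the highest value, but its interval overlapped that of chromosome 12, which followed at 8.41%. The shares of chromosome 17 (8.30%) and chromosome 18 (8.05%) lay inside the range of the others, which began at 6.75%. The pooled differences from the other autosomes were -0.596 points in haploid ESC (-0.770 to -0.420) and 0.592 points in sperm (0.433 to 0.753), and for chromosome 18 in sperm the interval held 0 (0.247 points, -0.0521 to 0.556). Without chromosome 5 the sperm difference was 0.383 points. Against other autosomes weighted to the same site density, the sperm difference of chromosome 5 went from 0.828 to -0.0191 points and that of chromosome 17 from 0.502 to 0.0909.

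At an adjusted p below 0.01 the second pair was called at 3.93% of all haploid ESC sites and 3.35% of all sperm sites. Chromosomes 5, 17 and 18 then had 3.65%, 3.63% and 3.53% in haploid ESC and 3.84%, 3.68% and 3.62% in sperm. At 0.001 the backgrounds were 1.33% and 1.54%. The 3 chromosomes had 1.16%, 1.17% and 1.10% in haploid ESC and 1.77%, 1.61% and 1.58% in sperm. Chromosome 5 stayed the highest autosome in sperm at both thresholds, and chromosome 18 the lowest in haploid ESC.

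The sperm difference was smaller against 1 Mb bins of the same site density. Across all 20 autosomes, the sperm shares fell as sites per Mb rose (Pearson's r -0.82 in the first and -0.91 in the second pair), and the haploid ESC shares rose (0.75 and 0.66). Over the 17 other autosomes alone the 4 values were -0.79, -0.89, 0.72 and 0.67, so the relation was also present without chromosomes 5, 17 and 18. When the sites of the other autosomes were weighted so that they fell into bins of the same density as those of the 3 chromosomes, the first-pair difference in sperm became 0.666 points in place of 3.02. The second-pair difference in sperm became 0.0369 points and that of haploid ESC -0.372. The first-pair difference in haploid ESC kept more of its size, at -0.880 points. Chromosome 5 went from 4.37 to 0.862 points in sperm, chromosome 17 from 2.44 to 0.687 and chromosome 18 from 1.10 to 0.270.

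The same appeared in bins grouped by density. In bins with fewer than 200 sites, 79.8% of sperm sites on the 3 chromosomes were called for the first pair (78.0% to 81.5%) against 77.6% on the other autosomes (76.8% to 78.4%). With 200 to 299 sites the shares were 78.8% and 77.5%, and with 300 to 399 sites they were 73.5% and 73.6%. From 400 to 599 sites they were 69.6% and 69.0%, from 600 to 899 sites 67.0% and 66.3%, and in bins of 900 or more 68.1% and 67.4%. Sperm shares on the 3 chromosomes were thus higher than elsewhere in 5 of the 6 density classes, by 0.671 to 2.20 points. The intervals were apart only with 200 to 299 sites (78.4% to 79.3% against 77.3% to 77.7%). In haploid ESC the 3 chromosomes were lower in all 6 classes, by values from -0.593 to -2.29 points. There the intervals were apart only with 400 to 599 and 600 to 899 sites. No interval of the difference was computed for these classes, and overlap of 2 separate intervals does not show that a difference is absent. The haploid ESC shares changed little with density, from 64.4% in the sparsest class to 66.2%, 65.9%, 65%, 65.4% and, in the densest, 68.0%.

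**Figure D3:**
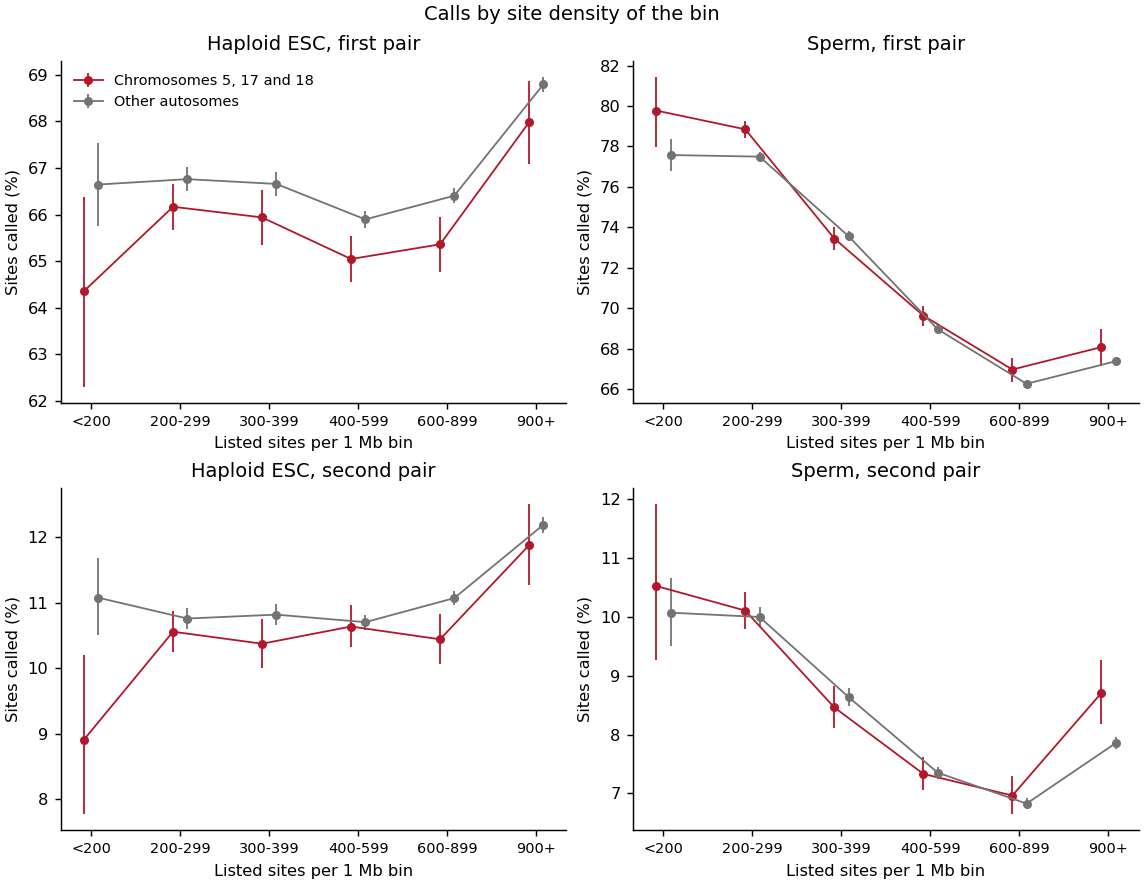
Percent of listed sites called (vertical) in 1 Mb bins grouped by their number of listed sites (horizontal), for chromosomes 5, 17 and 18 pooled (red) and the other autosomes (grey). Vertical lines are 95% Wilson intervals, and the vertical axes do not start at 0. In sperm the first-pair lines start at 79.8% (red) and 77.6% (grey) and end at 68.1% and 67.4%, and in haploid ESC the red line lies below the grey one in every class.

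Within each chromosome, the sperm share fell as density rose. Over the bins, Spearman's rho of sites per bin and first-pair share was -0.76 on chromosome 5, -0.89 on chromosome 17 and -0.76 on chromosome 18, as against -0.76 over 2327 bins of the other autosomes. For haploid ESC it was -0.08, 0.09 and -0.21, against 0.07. For the second pair in sperm it was -0.58, -0.59 and -0.49, and in haploid ESC 0.04, 0.18 and 0.02. These values describe bins that share libraries, and shares in sparse bins rest on fewer sites. Adjacent bins were alike in sperm, with Pearson's r between a bin and the next of 0.48, 0.65 and 0.59 on chromosomes 5, 17 and 18. In haploid ESC it was 0.04, 0.22 and -0.06, and on the other autosomes 0.59 in sperm and 0.22 in haploid ESC. Haploid ESC shares also varied less between bins, with standard deviations of 3.30, 3.45 and 2.82 points against 5.34, 6.62 and 5.31 in sperm. Counting error weighs more on so small a spread and lowers r, so a lack of relation cannot be read from these values.

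Sperm exceeded haploid ESC in most bins. The first-pair share was higher in sperm in 177 of 185 bins on chromosome 5, in 82 of 95 on chromosome 17 and in 70 of 75 on chromosome 18, together 92.7%, against 75.2% of the other autosomes' bins. The median difference between the shares was 9.60 percentage points on chromosome 5, 8.59 on chromosome 17 and 5.59 on chromosome 18, and 3.97 elsewhere. Bins with over 80% of sperm sites called made up 23.2%, 24.2% and 9.33% of chromosomes 5, 17 and 18, and 7.65% of the other bins. No bin of the 3 chromosomes passed 80% in haploid ESC, and 1 bin of the others did.

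The longest stretches of high sperm bins lay where listed sites per Mb were few. On chromosome 17, a stretch of 20 bins (chr17:54000001-74000000) had over 75% of sperm sites called in each bin. Its pooled share was 79.1% in sperm and 66.3% in haploid ESC, at 270 sites per Mb. On chromosome 5 the longest such stretch was 11 bins (chr5:106000001-117000000), with 78.2% in sperm and 65.7% in haploid ESC at 288 sites per Mb. On chromosome 18 it was 5 bins (chr18:59000001-64000000), with 81.8% and 65.9% at 241 sites per Mb. These 5 bins held the 628 kb stretch without a listed site (chr18:59557919-60186408), which lowers their sites per Mb. All 3 stretches were sparser than their chromosome as a whole. The sparsest 10 Mb, chr17:40000001-50000000, held 205 sites per Mb, and 82.4% of its sperm sites and 65.3% of its haploid ESC sites were called. The densest 10 Mb of chromosome 5, at its start, held 730 per Mb, and there the shares were 68.8% and 68.4%. These stretches were picked after their values were seen.

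Single bins showed the extremes. On chromosome 17 the sperm share was highest at chr17:44000001-45000000, with 88.5% of 156 sites (82.5% to 92.6%), and lowest at chr17:11000001-12000000, with 62.6% of 414 sites (57.8% to 67.1%). Haploid ESC had 63.4% and 65.6% there, so the first of these bins also held the largest excess of sperm on this chromosome, 25.1 points. On chromosome 18 sperm ranged from 62.2% of 344 sites at chr18:15000001-16000000 (57.0% to 67.2%) to 85.8% of 141 sites at chr18:59000001-60000000 (79.1% to 90.6%). The latter bin held part of the 628 kb stretch without a listed site. The largest excess of sperm lay at chr18:23000001-24000000, with 81.0% against 60.5%, or 20.5 points. On chromosome 5 sperm was lowest at chr5:1000001-2000000, with 63.8% of 1221 sites (61.1% to 66.4%).

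The last bin of chromosome 5 stood apart. Of its 53 sites listed in sperm, 52 were called for the first pair, or 98.1% (90.1% to 99.7%), and 17 for the second, or 32.1% (21.1% to 45.5%). The next highest bins of the chromosome had 83.5% in the first pair and 17% in the second. In haploid ESC 41 of its 54 sites were called for the first pair, or 75.9% (63.1% to 85.4%), and 9 for the second, or 16.7% (9.02% to 28.7%). The sites lay close together, between chr5:184007264 and chr5:184068300, so they were few and clustered, and neighbouring calls were not independent.

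Haploid ESC exceeded sperm by most at chr17:6000001-7000000, with 69.4% against 63.6% (-5.80 points for sperm minus haploid ESC). On chromosome 5 this bin was chr5:4000001-5000000, with 73.5% against 69.3%, and on chromosome 18 it was chr18:53000001-54000000, with 69.2% against 65.1%. All 3 held over 600 sites, more than the median bin of their chromosome. The haploid ESC share itself ranged from 58.3% (chr5:173000001-174000000) to the 75.9% of the last bin on chromosome 5. Chromosome 17 ranged from 57.5% (chr17:65000001-66000000) to 77.6% (chr17:40000001-41000000), and chromosome 18 from 58.4% (chr18:15000001-16000000) to 73.8% (chr18:28000001-29000000). The bin at chr18:15000001-16000000 was the lowest of its chromosome in both cell types.

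For the second pair, sperm bins ranged from 2.87% (chr5:35000001-36000000) to the last bin on chromosome 5. On chromosome 17 they ranged from 4.33% (chr17:20000001-21000000) to 17.3% (chr17:42000001-43000000), and on chromosome 18 from 4.53% (chr18:17000001-18000000) to 12.8% (chr18:59000001-60000000). On chromosomes 17 and 18 the highest bins lay in the sparse stretches named above. Haploid ESC bins ranged from 5.06% (chr5:172000001-173000000) to 18.1% (chr5:79000001-80000000), from 3.60% (chr17:64000001-65000000) to 14.4% (chr17:34000001-35000000), and from 5.83% (chr18:23000001-24000000) to 13.7% (chr18:29000001-30000000). Intervals of single bins were wide, such as 1.91% to 6.70% for the 3.60% and 13.8% to 23.5% for the 18.1%. Across bins, Spearman's rho of the second-pair shares of the 2 cell types was -0.00, -0.02 and 0.08 on chromosomes 5, 17 and 18. Counting error in each bin pulls such values towards 0, so a lack of relation cannot be read from them.

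Crowding of sites was also described at short range, by the number of other listed sites within 500 bp. Among sites with none, 71.4% were called for the first pair in sperm on the 3 chromosomes (71.1% to 71.8%) and 68.2% on the other autosomes (68.1% to 68.3%). In haploid ESC the shares were 65.6% and 65.4%, with overlapping intervals. With 1 neighbour haploid ESC had 64.7% (64.2% to 65.1%) against 66.1% (65.9% to 66.2%), and with 2 or 3 neighbours 68.9% (68.2% to 69.6%) against 71.1% (70.9% to 71.3%), lower on the 3 chromosomes in both. Sperm had 72.5% against 68.5% with 1 neighbour and 75.3% against 72.5% with 2 or 3. Among sites with 4 or more neighbours, sperm had 82.8% (80.8% to 84.6%) against 80.7% (80.3% to 81.2%), and haploid ESC 75.7% (73.4% to 77.8%) against 77.3% (76.8% to 77.8%). Such crowded sites were 1.14% of those on the 3 chromosomes and 2.39% elsewhere. In sperm the 3 chromosomes were higher at each number of neighbours. These groups were not weighted for bin density, so their differences cannot be set against the 0.666 points left by that weighting. Sperm calls were thus frequent both in sparse bins and at crowded sites.

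Calls at successive listed sites were weakly alike. For sperm sites at most 200 bp apart, the phi coefficient of first-pair calls, which is 0 for unrelated and 1 for identical calls, was 0.176 on chromosome 5, 0.154 on chromosome 17 and 0.135 on chromosome 18. The others ran from 0.109 to 0.160, and chromosome 5 had the highest value of the 20 autosomes. For haploid ESC it was 0.118, 0.0776 and 0.0864, against 0.0917 to 0.139, so chromosomes 17 and 18 had the lowest values. These ranks did not all hold farther apart. At 200 to 1000 bp the 3 chromosomes had 0.113, 0.114 and 0.0803 in sperm, against 0.0750 to 0.123. In haploid ESC chromosomes 17 and 18 were again lowest there. At 1000 to 5000 bp chromosome 5 was highest in haploid ESC (0.0328), and chromosome 18 lay inside the range of the others. No interval was computed for these coefficients.

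At the 123280 sites listed in both tables, calls could be compared site by site. For the first pair, 51.1% of all shared autosomal sites were called in both cell types, 18.9% in sperm alone and 16.5% in haploid ESC alone. Calls in sperm alone made up 21.4% on chromosome 5 (12416 sites), 20.9% on chromosome 17 (7279) and 20.5% on chromosome 18 (6245). These were the 3 highest values of the 20 autosomes, and chromosome 2 followed at 20.1%. They lay 2.73 (2.39 to 3.08), 2.24 (1.81 to 2.68) and 1.78 (1.32 to 2.24) points above the other autosomes. Pooled, the difference was 2.36 points, and 4.01 with calls at an adjusted p below 0.001. At 0.001 a site called in sperm alone could still be called in haploid ESC at the looser threshold. The 4.01 is therefore not a stricter form of the 2.36. Calls in haploid ESC alone made up 13.8%, 15.1% and 15.9%, the lowest, second lowest and 8th lowest values. For every site called only in haploid ESC there were 1.55 called only in sperm on chromosome 5, 1.38 on chromosome 17 and 1.28 on chromosome 18, against 0.908 to 1.32 on the others. Sites called in both were 52.7%, 51.2% and 50.3%, inside the range of the others (49.6% to 53.9%). The phi coefficient between the cell types was 0.165, 0.158 and 0.159, the 3 lowest values, with 0.167 to 0.208 on the others and no interval computed.

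**Figure D4:**
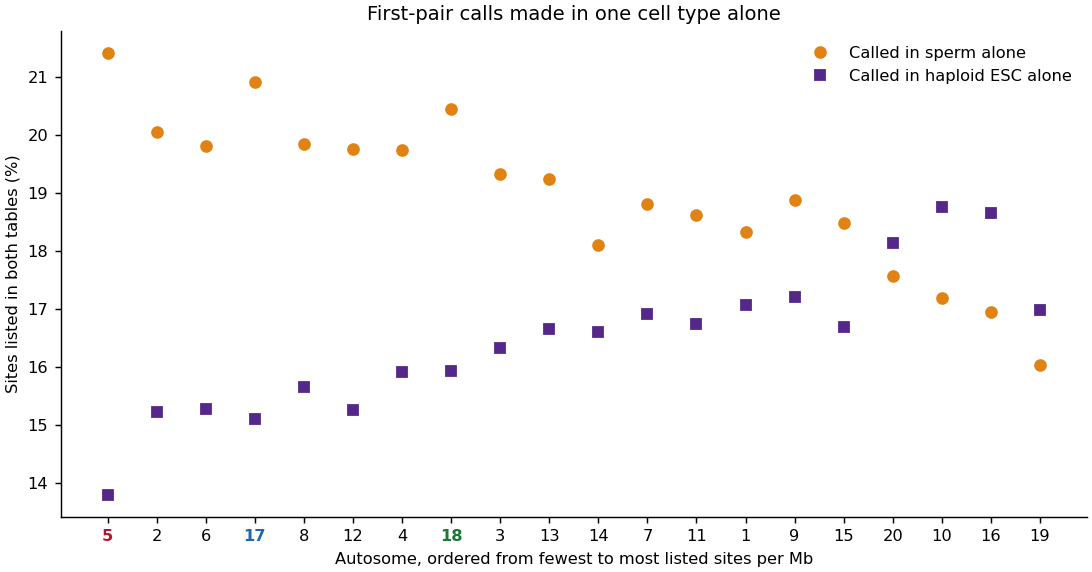
Percent of sites listed in both tables that were called for the first pair in sperm alone (orange circles) or in haploid ESC alone (purple squares), for the 20 autosomes ordered from fewest to most listed sites per Mb. The vertical axis does not start at 0. Chromosomes 5, 17 and 18, with coloured labels, have the 3 highest orange values (21.4%, 20.9% and 20.5%), and the 2 series cross on the densest chromosomes.

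For the second pair, 1.6% of all shared autosomal sites were called in both, 6.38% in sperm alone and 9.93% in haploid ESC alone. On chromosomes 5, 17 and 18, 1.67%, 1.52% and 1.42% were called in both. Joint calls were least frequent on chromosomes 18 and 17, but chromosome 4 followed closely at 1.53%. Haploid ESC alone made up 9.50%, 9.68% and 9.02%, and sperm alone 7.08%, 6.97% and 6.77%. The ratio of sperm alone to haploid ESC alone was 0.745, 0.720 and 0.750, the 3 highest of the 20 autosomes. The others ran from 0.502 to 0.706 on chromosome 12, and no interval was computed for these ratios. In this pair haploid ESC alone still outnumbered sperm alone on each autosome, the reverse of the order in the first pair on these 3 chromosomes.

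Sites listed in one table and missing in the other also differed. Of the sperm sites, 3.48% on chromosome 5, 3.59% on chromosome 17 and 3.46% on chromosome 18 were missing in haploid ESC. These were the 3 highest values of the 20 autosomes, and the others ran from 2.81% to 3.39% on chromosome 19, whose interval overlapped theirs. Pooled, the share was 3.51% against 3.07%, a difference of 0.439 points (0.334 to 0.546). Of the haploid ESC sites, 7.32%, 7.79% and 7.46% were missing in sperm, and the pooled share was 7.49% against 7.78% (-0.293 points, -0.441 to -0.143, and -0.134 at the same site density). Chromosome 17 differed from the others by 0.00856 points, and its interval held 0. Why a site is missing was not tested.

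Regions where whole groups of neighbouring sites were called in one cell type alone are of interest because imprinted regions would carry parental marks over many sites. Such runs can also come from the cell type itself, which cannot be told apart from parental origin here. A run was taken as at least 5 successive shared sites, with gaps of 1000 bp or less, where the first pair was called in only one of the cell types throughout. Haploid ESC alone gave 0 runs on the 3 chromosomes and 43 on the other autosomes (3.94 per 100000 shared sites). Sperm alone gave 7 runs, 5 of them on chromosome 5, against 38 on the others, or 5.68 and 3.48 per 100000 shared sites. With a distance of up to 2000 bp the 3 chromosomes had 8 runs called only in haploid ESC and 13 only in sperm, against 126 and 99 on the others. With calls at an adjusted p below 0.001 they had 3 and 37, against 101 and 181. That threshold was applied to both cell types. A site not called in the other cell type at 0.001 could therefore still be called there at the looser threshold used above. The counts at 0.001 are thus not a stricter form of the first ones. On the 3 chromosomes sperm alone had more runs than haploid ESC alone under each of the 3 settings, and on the other autosomes this held for calls below 0.001 only. The 3 chromosomes held 10.1% of the shared autosomal sites, and no interval was computed for these counts. A run needs sites close together, and runs called in both cell types were rarer here, at 411 against 740 per 100000 shared sites.

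The 7 runs called in sperm alone each held 5 sites. On chromosome 5 they lay at chr5:26011781-26013467, chr5:30362841-30363904, chr5:93835721-93838014, chr5:107095534-107096710 and chr5:182425953-182428408, and the others at chr17:683348-684504 and chr18:73809550-73810340. In the authors' deposited tables the run at chr5:93835721-93838014 had adjusted p from 1.78e-56 to 5.81e-14 in sperm and from 0.0508 to 0.199 in haploid ESC. The run on chromosome 17 had, by the authors' deposited tables, adjusted p from 1.04e-47 to 3.82e-14 in sperm and from 0.106 to 0.417 in haploid ESC. For the run on chromosome 18 the authors' deposited tables gave 5.74e-42 to 1.79e-11 and 0.0759 to 0.231. At the other runs of chromosome 5 the highest adjusted p in sperm, by the authors' deposited tables, was weaker. It was 6.54e-06, 1.74e-08, 4.28e-05 and 0.00686, in the order above. Runs were defined by these adjusted p, so low values in sperm and high ones in haploid ESC follow from the definition. The lowest haploid ESC value at chr5:93835721-93838014 lay just above the threshold, so a slightly looser threshold would end that run. Genes at these positions are not named, because no annotation in the coordinates of the tables was used.

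Runs called in both cell types were less frequent per site. There were 507 on the 3 chromosomes, or 411 per 100000 shared sites, against 740 on the other autosomes, and this count depends on how many sites lie close together. The longest by number of sites were chr5:167582526-167589605 and chr17:7545639-7551205 with 18 sites each and chr18:51622376-51626687 with 15. A single run was called in neither cell type, at chr5:171164646-171167286, or 0.811 per 100000 shared sites, against 15 on the other autosomes, or 1.37. One run of 5 or more successive sites was missing in sperm, at chr5:34812917-34818926, against 9 on the other autosomes. Missing in haploid ESC there were 0, against 13. The 3 chromosomes held 9.75% of all listed haploid ESC sites and 9.85% of all listed sperm sites. With counts this small, no difference from that share can be read from them.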

How the data were processed

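CCGG sites were profiled by HMST-Seq in 6 libraries, 1 per digest and cell type, so there is no replicate. The authors deposited 1 table per cell type, with 10 unnamed columns. They were taken, by inference, as chromosome and position, followed for each of 2 pairs of digests by 2 values and the authors' p-value before and after adjustment. The deposited adjusted p-value of the second pair is treated as a score, since it reaches 1.03. The 8 value columns (4 per table) tie to no library by name and are not analysed here, although they had been planned for. The sources used here do not give the test, aligner or counting. Per the submitters' processing notes the build is hg19, which does not match chromosomes named 1 to 20, so the build is treated as not given and no sequence or gene is named. Depth per library is unknown.

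Sites were joined on chromosome and position, binned by 1 Mb and called at an adjusted p below 0.05 with Python 3.11.15, pandas 2.3.3, numpy 2.4.6 and scipy 1.17.1. Density weighting used 10 classes of sites per bin. The scripts were tested on simulated data. Named bins were those with the most and fewest sites, the highest and lowest shares (at least 50 sites) and the largest differences, with each run called in one cell type alone and the longest gap. Second-ranked bins, 10 Mb stretches, stretches over 75% and the runs called in both, in neither or missing were picked with their values in view. The chromosomes and comparisons were chosen with earlier results of these data known. Alternatives were other thresholds, bins of equal weight, density weighting, trimmed ends, chromosomes left out and a longer run distance.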

Additional observations from a re-analysis of the deposited data

Results flagged for a closer look

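In both pairs of digests the differences of the 3 chromosomes from the other autosomes had opposite signs in the 2 cell types, negative in haploid ESC and positive in sperm. For the first pair the differences in percentage points were -1.01 in haploid ESC and 4.37 in sperm on chromosome 5. On chromosome 17 they were -1.24 and 2.44, on chromosome 18 they were -1.30 and 1.10, and pooled they were -1.15 and 3.02. For the second pair they were -0.441 and 0.828 on chromosome 5, -0.431 and 0.502 on chromosome 17, -1.08 and 0.247 on chromosome 18, and -0.596 and 0.592 pooled. The interval of the second-pair sperm difference on chromosome 18 held 0 (-0.0521 to 0.556). Whether the cell types differ in this was not tested, since each digest had 1 library. Site density moves with these values, and at the same site density of 1 Mb bins the pooled sperm differences were 0.666 and 0.0369 points. The second-pair sperm differences then were -0.0191 on chromosome 5, so that the sign reversed, 0.0909 on chromosome 17 and 0.0818 on chromosome 18.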

How the results depend on the processing

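Of 67 alternative values of the main comparisons 38 stayed within the counting interval of the reported value, 25 left it, and the other 4, which are counts of runs and have no interval, moved by over 1.5 times. None of them reversed. Of 142 for single chromosomes and related measures 110 stayed within it, 28 moved and 4 reversed. No paired analysis was possible because each cell type had 1 library per digest. The ratio of site densities was 0.741 over bins with at least 50 sites, 0.731 without the outer 5 Mb at each end, 0.841, 0.743 and 0.724 without chromosomes 5, 17 and 18 in turn, and 0.797 without chromosomes 16, 19 and 20. The first-pair difference in haploid ESC was -1.63 points at an adjusted p below 0.001, -0.804 as a mean over bins and -0.880 at the same site density. In sperm it was 3.61 at 0.01, 3.98 at 0.001, 0.666 at the same density, 3.80 without the ends, 1.81 without chromosome 5, 3.65 without chromosome 18 and 2.71 without chromosomes 16, 19 and 20. The second-pair difference in haploid ESC was -0.351 at 0.01, -0.204 at 0.001 and -0.372 at the same density. In sperm it was 0.352, 0.113 and 0.0369 under those settings, 0.805 without the ends and 0.383 without chromosome 5. The share of haploid ESC sites missing in sperm differed by -0.134 points at the same density. Runs called in haploid ESC alone numbered 3 and those in sperm alone 37 at 0.001, and 8 and 13 with sites up to 2000 bp apart. On the other autosomes they numbered 101 and 181, and 126 and 99. The 3 chromosomes held 10.1% of the shared autosomal sites. In the runs at 0.001 the other cell type could still be called at the looser threshold of the reported values. The second-pair sperm difference of chromosome 5 reversed from 0.828 to -0.0191 at the same density. From values near 0, the share of haploid ESC sites missing in sperm on chromosome 17 reversed from 0.00856 to -0.0874 as a mean over bins and to -0.0581 without the ends, and the haploid ESC rho of chromosome 5 from -0.08 to 0.0238 at 0.001. The cause of these changes was not tested beyond the density weighting. Intervals cover counting error only, and the depth behind a call is unknown.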
